A study of Mus musculus with 12 samples.

Results

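Prostanoids and leukotrienes are signalling lipids made from arachidonic acid, which phospholipases cut out of membrane lipids. Cyclooxygenases turn arachidonic acid into prostaglandin H2, from which dedicated synthases make prostaglandin E2, prostacyclin and thromboxane. 5-lipoxygenase, with its activating protein, starts the separate route to the leukotrienes. In the glomerulus, the filtering unit of the kidney, prostacyclin and prostaglandin E2 are known as dilators of small vessels and thromboxane as a constrictor, while the leukotriene enzymes are known chiefly from leukocytes.

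9 genes of these routes were described in sorted glomerular endothelial cells (GEC), out of 19564 genes listed in at least 1 of the 2 deposited tables. They were chosen by name: *Ptgs1* and *Ptgs2* (cyclooxygenases), *Ptges* (prostaglandin E synthase), *Ptgis* (prostacyclin synthase), *Tbxas1* (thromboxane A synthase), *Ptger4* (the EP4 receptor of prostaglandin E2), *Alox5* (5-lipoxygenase), *Alox5ap* (its activating protein) and *Ltc4s* (leukotriene C4 synthase). 8 of them were in the table of the dim tdT GEC, 8 in that of the bright tdT GEC and 7 in both. *Ptgis* was not listed in the dim table and *Alox5* was not listed in the bright table, so neither could be compared between the subpopulations. The names came from results of AS over WT in these libraries, so every AS over WT value of the 9 genes is given below as a description, with no p-value. Where the number of the 9 genes past a threshold of p stands beside the number or share of all genes, it records the fit and nothing is read from it.

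The mice were C57BL/6, 4 months old, wild type (WT) or Col4a5 -/- (AS, a model of Alport syndrome, a hereditary disease of basement membrane collagen). All carried the TekCre and tdTomato reporter, in which Cre, driven by the promoter of *Tek*, an endothelial receptor gene, turns on a red fluorescent protein. That promoter is also known to be active in blood-forming cells. Glomeruli were sieved from the cortex and digested, and cells were sorted by dim or bright tdTomato (tdT) signal, which gave 4 groups of 3 libraries from 6 mice: WT-dim, AS-dim, WT-bright and AS-bright. The dim and bright libraries of a number came from the same mouse.

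Libraries held 11440169 to 15074909 counts on genes (median 13798656). Counts of the targeted gene, *Col4a5*, were 439 to 877 in the WT-dim and 17 to 51 in the AS-dim libraries, but 69 to 158 in the WT-bright and 43 to 104 in the AS-bright libraries. The cells labelled dim tdT GEC carried leukocyte markers above endothelial ones. Summed over 14 endothelial genes, levels in CPM (counts scaled to a library size of 1 mega-count) were 750 to 1380 in WT-dim, 232 to 319 in AS-dim, 11900 to 17000 in WT-bright and 16000 to 19100 in AS-bright libraries. Summed over 6 genes that all leukocytes use, CPM were 6020 to 10100 in WT-dim, 10100 to 10800 in AS-dim, 25.5 to 68.8 in WT-bright and 64.7 to 97.7 in AS-bright libraries. Proximal tubule markers (8 genes) reached 1200 to 5700 in WT-dim, 12.3 to 321 in AS-dim, 385 to 2480 in WT-bright and 45.4 to 421 in AS-bright libraries. Every comparison below therefore also compares libraries of different cell content, and the part of these markers in the results was not tested. In bulk RNA, fewer cells of a type and less RNA per cell cannot be told apart.

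**Figure D1:**
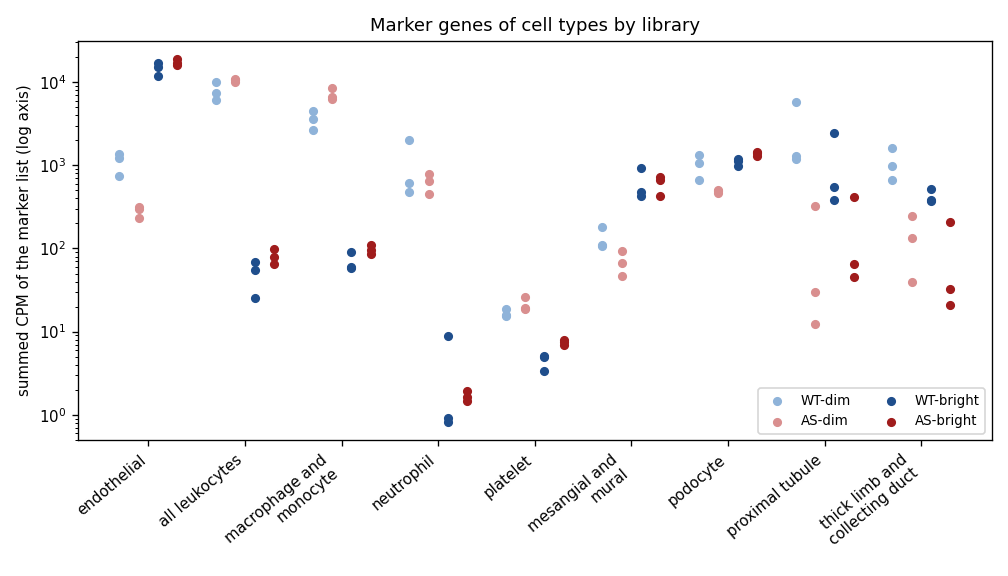
Summed CPM of marker lists (log axis) for the cell types on the x axis, with 1 point per library and a colour per group. Endothelial markers were highest in the bright libraries, and leukocyte, macrophage and neutrophil markers were highest in the dim libraries; for each tubule list the single highest library was a WT-dim library.

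To set the 2 cyclooxygenase genes, which differed between the subpopulations in opposite directions, beside the receptor gene *Ptger4*, the stretch of promoter from 120 bases before to 30 after the RefSeq start site is shown for each (GRCm38.p6, gene strand). Capitals mark motifs found by their letters: ACGTCA (the core of a cyclic AMP response element) and CACGTG (an E-box), which share 2 bases in *Ptgs2*, and CCGCCC, the GC box GGGCGG read on the other strand, in *Ptger4*.
Ptgs1, chr2:36230306-36230455, plus strand: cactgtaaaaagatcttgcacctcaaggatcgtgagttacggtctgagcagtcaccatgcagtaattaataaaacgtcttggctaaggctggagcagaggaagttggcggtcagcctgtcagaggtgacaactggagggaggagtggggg
Ptgs2, chr1:150099911-150100060, plus strand: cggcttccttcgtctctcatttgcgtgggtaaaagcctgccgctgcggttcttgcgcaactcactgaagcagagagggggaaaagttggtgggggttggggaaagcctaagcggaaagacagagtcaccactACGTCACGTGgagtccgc
Ptger4, chr15:5244158-5244307, minus strand: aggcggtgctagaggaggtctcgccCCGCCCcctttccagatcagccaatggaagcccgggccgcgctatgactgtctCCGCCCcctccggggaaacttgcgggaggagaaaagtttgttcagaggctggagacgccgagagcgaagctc
Windows of 300 bases were held for 7 of the 9 genes, without *Ptgis* and *Alox5ap*. Among the 7, ACGTCA and CACGTG were in *Ptgs2* alone, TATAAA was in *Tbxas1* alone, and GGGCGG was in *Alox5*, *Ptger4*, *Ptges* and *Ptgs2*. On either strand, ACGTCA was in 7.51%, CACGTG in 7.15%, TATAAA in 13.6% and GGGCGG in 35.7% of all 32851 windows of that length. *Ptgs1* and *Ltc4s* had none of these letters in their windows. A match of letters is no measured binding site.

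Levels of different genes were compared as CPM per kilobase of merged exons. In bright tdT GEC *Ptgs1* ranked first of the 8 genes listed, at 14.4 ± 3.36 (SD, n = 3) CPM per kilobase in WT and 33.0 ± 3.49 (SD, n = 3) in AS mice, and its libraries did not overlap those of *Ptger4*, the next gene. In dim tdT GEC *Alox5ap* ranked first, at 52.6 ± 26.4 (SD, n = 3) in WT and 77.5 ± 15.2 (SD, n = 3) in AS mice, with no overlap with *Ptgs2*, the next gene. *Ptgs2* and *Ptger4* followed in the dim cells, at 10.8 ± 6.31 and 10.2 ± 1.46 in WT, where their libraries overlapped, and at 21.9 ± 3.06 and 12.5 ± 2.14 in AS, where they did not (CPM per kilobase, SD, n = 3). *Ltc4s* was the lowest gene of the dim cells, at 0.841 ± 0.127 in WT and 0.227 ± 0.163 in AS mice. The lowest gene of the bright cells was *Ptgs2* in WT, at 0.482 ± 0.272, and *Ptges* in AS mice, at 0.310 ± 0.297. Below the leading genes most neighbours in the order overlapped. The order therefore started with a cyclooxygenase gene in the bright cells and with a leukotriene pathway gene in the dim cells.

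**Figure D2:**
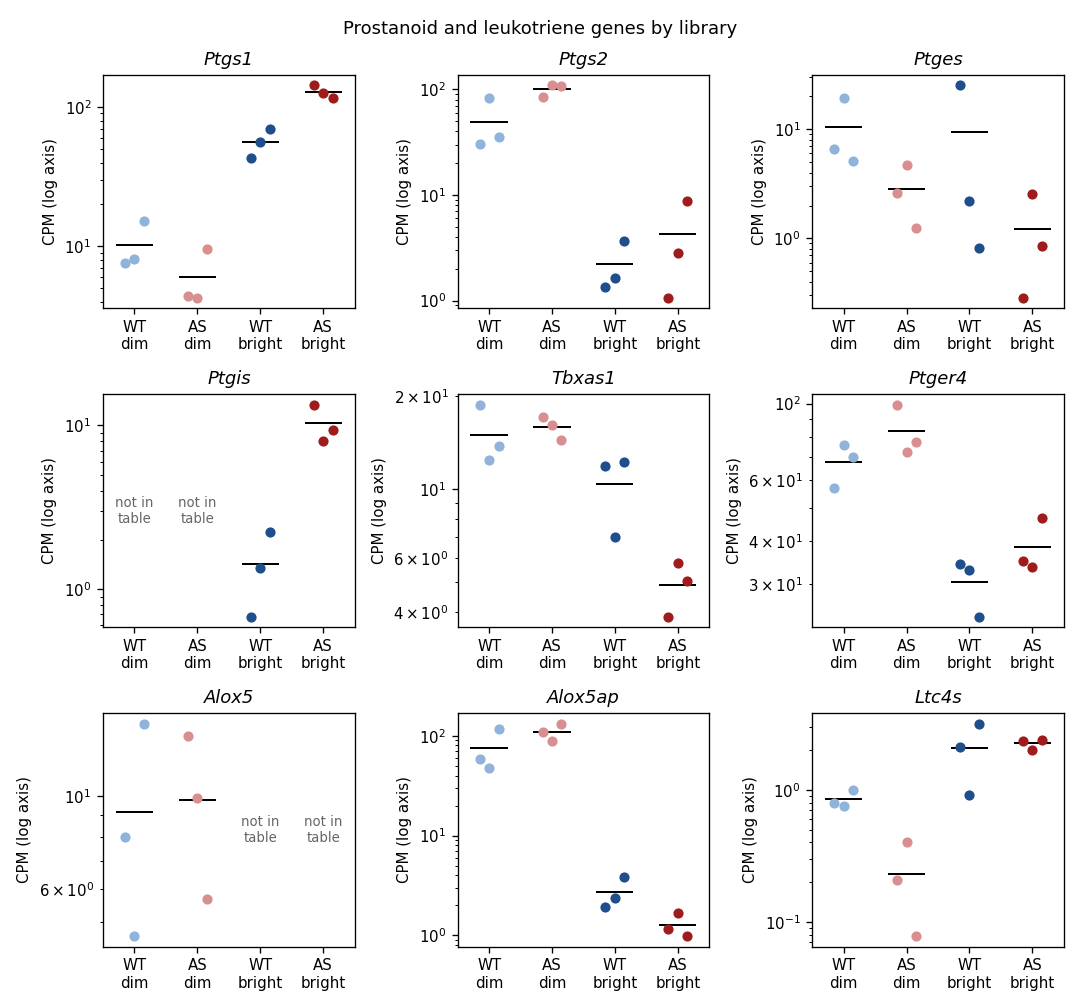
CPM of the 9 genes (log axis, 1 panel per gene) in each of the 3 libraries of the 4 groups, with the group mean as a black line. *Ptgs1* was higher in bright libraries and *Ptgs2* and *Alox5ap* in dim libraries; *Ptgis* and *Alox5* were each listed in 1 table.

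The comparison of bright with dim tdT GEC asks how the subpopulations of 1 genotype differ, and it was tested, since it did not choose the genes. *Ptgs1*, *Ptgs2*, *Ptger4* and *Alox5ap* differed in both genotypes. *Ptgs1* was higher in bright cells, and *Ptgs2*, *Ptger4* and *Alox5ap* were higher in dim cells. In WT 1 of 7 genes was higher and 3 were lower in bright cells with an adjusted p under 0.05, where 13.8% of all 14247 genes tested were higher and 11.5% lower. In AS 2 of 7 were higher and 4 lower, where 28.6% of all 14052 genes tested were higher and 26.5% lower; 1 of the 2, *Ltc4s*, passed the filter on low counts in that fit through its bright libraries. In either direction 25.3% of all genes passed in WT and 55.1% in AS, the background against which these counts stand. Libraries of bright and dim cells did not overlap for 1 gene higher and 4 lower in WT, where 22.2% of all genes were higher and 19.7% lower without overlap (41.9% in all). In AS they did not overlap for 2 genes higher and 4 lower, where 31.9% of all genes were higher and 30.5% lower (62.4% in all). The median log2 fold change of the 7 genes was -0.52 in WT and -1.19 in AS, against -0.04 and 0.02 over all genes tested.

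The constitutive cyclooxygenase gene *Ptgs1* (chr2:36230426-36252272, plus strand) had 86, 96 and 181 counts in the WT-dim and 636, 789 and 1026 counts in the WT-bright libraries. In AS it had 64, 53 and 122 counts in the dim and 1989, 1947 and 1645 counts in the bright libraries. Every bright library was above every dim library in both genotypes. Mean levels were 10.3 ± 4.40 CPM in WT-dim against 56.0 ± 13.2 in WT-bright, and 6.18 ± 3.02 in AS-dim against 129 ± 12.6 in AS-bright libraries (SD, n = 3). The log2 fold change of bright over dim was 2.44 in WT (standard error 0.39, adjusted p = 0.00177 by edgeR's quasi-likelihood test) and 4.39 in AS (standard error 0.30, adjusted p = 1.09e-06), which is 5.44-fold and 20.9-fold. Both calls held in each alternative fit tried.

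The inducible cyclooxygenase gene *Ptgs2* (chr1:150100031-150108227, plus strand) went the other way. WT mice gave 339, 979 and 427 counts in dim and 20, 23 and 54 counts in bright cells. AS mice gave 1223, 1347 and 1383 counts in dim and 15, 44 and 125 counts in bright cells. No bright library reached a dim one in either genotype. The log2 fold change of bright over dim was -4.48 in WT (standard error 0.59, adjusted p = 0.000635, 22.3-fold lower in bright cells). In AS it was -4.58 (standard error 0.50, adjusted p = 2.95e-05, 23.9-fold lower). Values moved most without WT-dim replicate 2, the highest of its group, to -3.87, and without AS-bright replicate 3, the highest of its group, to -5.66, and both still passed.

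Within a library, the share of *Ptgs1* among the counts of both cyclooxygenase genes does not depend on scaling between libraries. The share was 19.6% ± 10.4 in WT-dim and 5.62% ± 2.23 in AS-dim libraries, against 96.4% ± 1.19 in WT-bright and 96.7% ± 3.31 in AS-bright libraries (SD, n = 3). It ran from 8.93 to 29.8% in WT-dim and from 3.79 to 8.11% in AS-dim libraries, and was at least 92.9% in every bright library. Per kilobase of exon the means were 22.2, 6.56, 96.9 and 97.1% in the same order of groups. The cyclooxygenase messages were thus mostly *Ptgs2* in the dim and mostly *Ptgs1* in the bright libraries.

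**Figure D3:**
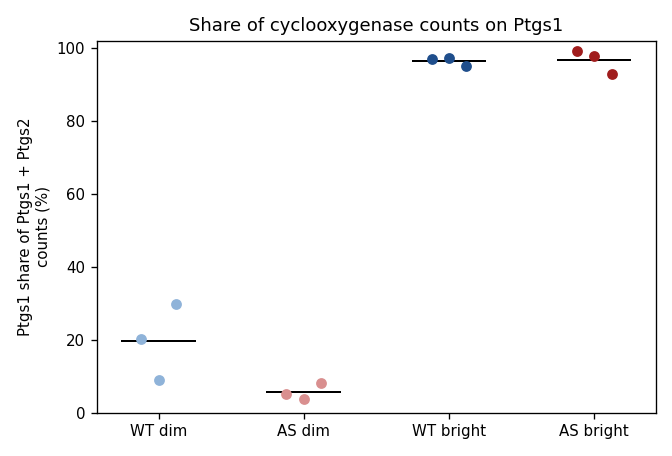
Counts on *Ptgs1* as a percent of the counts on *Ptgs1* and *Ptgs2* together (y axis, from 0), with 1 point per library, 3 per group, and the mean as a black line. All 6 bright libraries lie at or above 92.9% and all 6 dim libraries at or below 29.8%.

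Downstream of the cyclooxygenases, *Tbxas1* (chr6:38875404-39084585, plus strand), which makes thromboxane, had 211, 147 and 166 counts in the WT-dim and 175, 99 and 182 in the WT-bright libraries. In AS it had 250, 199 and 184 counts in the dim and 54, 89 and 72 in the bright libraries. Scaled to CPM, the bright libraries lay below the dim ones in both genotypes, without overlap. The log2 fold change of bright over dim was -0.52 in WT (standard error 0.40), which did not pass (adjusted p = 0.380), and -1.71 in AS (standard error 0.28, adjusted p = 0.000553). Thromboxane synthase is known from platelets and macrophages. Summed platelet markers were 15.4 to 25.8 CPM in the dim and 3.33 to 7.95 in the bright libraries, over 5 genes each that were not all the same. Macrophage and monocyte markers were 2660 to 8460 CPM over 10 genes in dim, against 57.9 to 110 CPM over 8 genes in bright libraries. The part of these markers in the *Tbxas1* difference was not tested. *Hipk2*, with 590 to 6018 counts, overlaps the *Tbxas1* locus on the opposite strand, without shared exon bases.

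*Ptges* (chr2:30889471-30929863, minus strand), the inducible synthase of prostaglandin E2, spread widely within each group. WT counts were 74, 231 and 61 in dim and 372, 31 and 12 in bright libraries. AS counts were 38, 58 and 16 in dim and 4, 39 and 12 in bright libraries. WT-bright replicate 1 and WT-dim replicate 2 stood above the rest of their groups, and dim and bright overlapped in both genotypes. Bright over dim, the log2 fold change was -0.15 in WT (standard error 1.02, adjusted p = 0.932) and -1.19 in AS (standard error 0.67). Without AS-bright replicate 2 the AS value was -2.35. Both AS values are a description, since only 2 of the 3 AS-bright libraries met the filter on low counts. Leaving out single libraries took the WT value from -2.78 to 0.71.

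Markers of the kidney tubule were compared with *Ptges* library by library, and in WT the lists did not run in 1 direction with it. The proximal tubule sum was highest in WT-bright replicate 1, at 2480 CPM against 385 and 553 CPM in the other WT-bright libraries, and *Ptges* was highest there too. In dim cells that list was highest in WT-dim replicate 1, at 5700 CPM against 1300 CPM in replicate 2, where *Ptges* was at 6.58 and 19.5 CPM. The sum listed for thick limb and collecting duct was highest in WT-dim replicate 2, at 1620 CPM against 671 and 991 CPM. In WT-bright replicate 1 that sum was 379 CPM, below 525 CPM in replicate 3. Its largest parts were *Slc12a3* and *Calb1*, genes of the distal convoluted and connecting tubule (595 ± 267 and 322 ± 177 CPM in WT-dim libraries, SD, n = 3). The thick limb genes *Umod* and *Slc12a1* were at 145 ± 52.3 and 29.8 ± 11.1 CPM there. In AS mouse 2, whose *Ptges* level was the highest of its group in both subpopulations, the proximal tubule sum was 321 CPM in dim and 421 CPM in bright cells, against 12.3 to 64.4 CPM in the other AS libraries. The other tubule sum was also highest in that mouse. It was 244 CPM in dim cells, against 135 and 39.4 CPM, and 209 CPM in bright cells, against 33 and 21.1 CPM. The part of these markers in the *Ptges* values was not tested.

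*Ptger4* (chr15:5206661-5244187, minus strand), the EP4 receptor gene, had 642, 901 and 843 counts in the WT-dim and 506, 467 and 359 in the WT-bright libraries. In AS it had 1440, 896 and 991 counts in the dim and 489, 520 and 666 in the bright libraries. All dim libraries were above all bright ones within a genotype. Bright over dim, its log2 fold change was -1.15 in WT (standard error 0.29, adjusted p = 0.0172) and -1.12 in AS (standard error 0.21, adjusted p = 0.00131), 2.22-fold and 2.18-fold lower in bright cells. The WT call was lost without WT-dim replicate 2 (log2 fold change -1.05, adjusted p = 0.0596) and without WT-bright replicate 3 (log2 fold change -0.99, adjusted p = 0.0858). The opposite-strand gene *Ttc33* shares 82 exon bases with *Ptger4* and had 68 to 493 counts. The opposite-strand pseudogene *Gm15937* shares 1015 exon bases with it and was listed for neither subpopulation.

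Of the leukotriene genes, *Alox5ap* (chr5:149264767-149288153, plus strand), whose protein hands arachidonic acid to 5-lipoxygenase, showed the widest gap of the 7 genes tested. In WT the log2 fold change of *Ptgs2*, -4.48 (standard error 0.59), lay within the errors of that of *Alox5ap*. WT counts were 658, 569 and 1413 in dim and 28, 33 and 57 in bright libraries. AS counts were 1583, 1096 and 1692 in dim and 16, 26 and 14 in bright libraries. No bright library came near a dim one. The antisense gene *Gm19719* shares 189 exon bases with *Alox5ap* and had 0 to 20 counts, so the low bright counts of *Alox5ap* are uncertain where strand was not used in counting. The log2 fold change of bright over dim was -4.79 in WT (standard error 0.51, adjusted p = 0.000198, 27.7-fold lower in bright cells) and -6.43 in AS (standard error 0.30, adjusted p = 8.71e-08, 86.1-fold lower). The 12-library profile was nearest to those of *Pygl*, *Ly6c2*, *Tpd52*, *Adam8* and *Ccdc88c*, with root mean square distances of 0.41 to 0.50 in log2 CPM centred on each gene's mean, among 12660 genes compared.

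*Alox5* (chr6:116410077-116461178, minus strand), the 5-lipoxygenase gene itself, was listed in dim cells only, with 90, 55 and 179 counts in the WT-dim and 201, 122 and 73 in the AS-dim libraries. The WT and AS libraries overlapped widely. Among the WT-dim libraries, replicate 3 was the highest for *Alox5*, *Alox5ap* and *Ptgs1*, at 14.9, 118 and 15.1 CPM. It also had the highest sum of neutrophil markers, 2030 CPM, where the other dim libraries had 453 to 792 CPM and the bright libraries 0.813 to 8.97 CPM over the 2 neutrophil markers listed there. Of the WT-dim libraries it was also highest for markers of all leukocytes (10100 CPM), macrophages and monocytes (4560 CPM) and B cells (1060 CPM). It was lowest for T and NK cell markers (193 CPM). In AS-dim cells *Alox5* and the neutrophil sum were highest in replicate 1 (13.9 and 792 CPM), but *Alox5ap* in replicate 3 (132 CPM). The macrophage and monocyte sum was 2660 to 4560 CPM in WT-dim and 6320 to 8460 CPM in AS-dim libraries. The part of these markers in the dim levels of *Ptgs2*, *Alox5* and *Alox5ap* was not tested.

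*Ltc4s* (chr11:50236461-50238616, minus strand) joins glutathione to leukotriene A4, the first step to the cysteinyl leukotrienes. WT counts were 9, 9 and 12 in dim and 31, 13 and 47 in bright libraries, and AS counts were 3, 5 and 1 in dim and 33, 31 and 34 in bright libraries. Counts were low throughout, and lowest in AS-dim cells. Bright over dim, its log2 fold change was 1.28 in WT (standard error 0.61) and 3.24 in AS (standard error 0.55), both given as a description. In WT only 2 of the 3 dim libraries met the filter on low counts. With 1 to 5 counts in AS-dim cells, the gene entered the AS fit only through the bright libraries. The antisense gene *Gm26542* shares 268 exon bases with *Ltc4s* and had 3 to 59 counts, so the counts of *Ltc4s* are uncertain where strand was not used in counting.

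Of 42 other genes of the routes, 33 were listed in at least 1 table and 27 in both. In WT 24 were tested between the subpopulations, and 4 were higher and 2 lower in bright cells, where 13.8% of all genes tested were higher and 11.5% lower (25.3% in all). In AS 22 were tested, and 10 were higher and 5 lower, where 28.6% of all genes were higher and 26.5% lower (55.1% in all). Their median log2 fold change was -0.02 in WT and 0.54 in AS, against -0.04 and 0.02 over all genes tested. The genes that passed in both genotypes were *Slco2a1*, *Alox12*, *Tbxa2r* and *Cysltr2*, higher in bright cells, and *Ptgir* and *Cyp4f18*, higher in dim cells. The lower genes include *Cyp4f18* in both genotypes and *Hpgds* in AS, and the higher genes include *Tbxa2r* in AS; these passed the filter on low counts only through the subpopulation where they are high.

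*Slco2a1*, the prostaglandin uptake transporter, was at 346 ± 119 CPM in WT-bright against 35.7 ± 5.69 in WT-dim, and at 384 ± 25.4 in AS-bright against 9.86 ± 3.62 in AS-dim libraries (SD, n = 3). Its log2 fold change of bright over dim was 3.28 in WT (standard error 0.33, adjusted p = 0.000138) and 5.29 in AS (standard error 0.28, adjusted p = 1.98e-07). *Tbxa2r*, the thromboxane receptor, had log2 fold changes of 4.11 in WT (adjusted p = 0.000343) and 5.47 in AS. The AS value is a description, since only 2 of the 3 AS-dim libraries, at 7, 18 and 16 counts, met the filter on low counts. *Ptgir*, the prostacyclin receptor, had log2 fold changes of -2.57 in WT (adjusted p = 0.00341) and -2.55 in AS (adjusted p = 3.79e-05). The receptor genes of thromboxane and prostacyclin were thus higher in opposite subpopulations. *Cysltr2*, a receptor of cysteinyl leukotrienes, had log2 fold changes of 2.44 (adjusted p = 0.0119) and 2.16 (adjusted p = 0.000404). *Alox12*, the platelet-type lipoxygenase gene, had log2 fold changes of 3.21 (adjusted p = 0.000195) and 4.00 (adjusted p = 8.92e-07) in the same order. *Cyp4f18*, whose product breaks down leukotriene B4, had 871 to 2335 counts in dim libraries and 1 to 10 in bright libraries. Its log2 fold changes of -8.59 in WT and -8.06 in AS are a description, since the gene entered both fits only through the dim libraries. They were -7.99 in WT without WT-dim replicate 3 and -8.88 in AS without AS-bright replicate 1.

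In AS 9 further genes passed, and whether the genotypes differed was tested separately below. Higher in AS-bright cells were *Abcc4*, a prostaglandin exporter (log2 fold change 2.80), *Pla2g6*, a phospholipase (2.05), *Cbr1*, a carbonyl reductase (1.98), and the prostaglandin synthases *Ptges2* (1.17), *Ptges3* (0.68) and *Akr1b3* (0.56). Lower in AS-bright cells were *Hpgds*, which makes prostaglandin D2 (-4.05, with 39 to 103 counts in AS-dim and 2 to 9 in AS-bright libraries, a description for the reason given), *Mgst2*, which can make leukotriene C4 (-1.71), and *Ptger2*, the EP2 receptor (-1.66). With the mouse as a block, the call of *Akr1b3* was lost (adjusted p = 0.0581), and in WT *Ptges3* (adjusted p = 0.0180) and *Ggt1* (adjusted p = 0.00691) passed, which without the block did not, *Ptges3* by a narrow margin and *Ggt1* with an adjusted p of 0.177. *Akr1b3* lost its call in 5 of the 6 fits without 1 AS library, *Mgst2* in 4 and *Ptges2* in 2. In the fit of all 12 libraries the calls of *Ptges2* (adjusted p = 0.107), *Ptger2* (adjusted p = 0.0533) and *Akr1b3* (adjusted p = 0.0514) were lost. *Hpgds* was at -5.13 without AS-bright replicate 3 and *Pla2g6* at 3.02 without AS-dim replicate 3. In WT, *Abcc4* was at 51.3 ± 15.2 CPM in bright and 27.8 ± 38.0 CPM in dim libraries (SD, n = 3, adjusted p = 0.492), but without WT-dim replicate 1, the library with the highest proximal tubule sum, its log2 fold change was 3.10 (adjusted p = 0.00432). *Lta4h*, the leukotriene A4 hydrolase gene, was high in both subpopulations, at 965 ± 136 CPM in WT-dim and 1000 ± 109 in WT-bright libraries (log2 fold change 0.05, standard error 0.22).

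**Figure D4:**
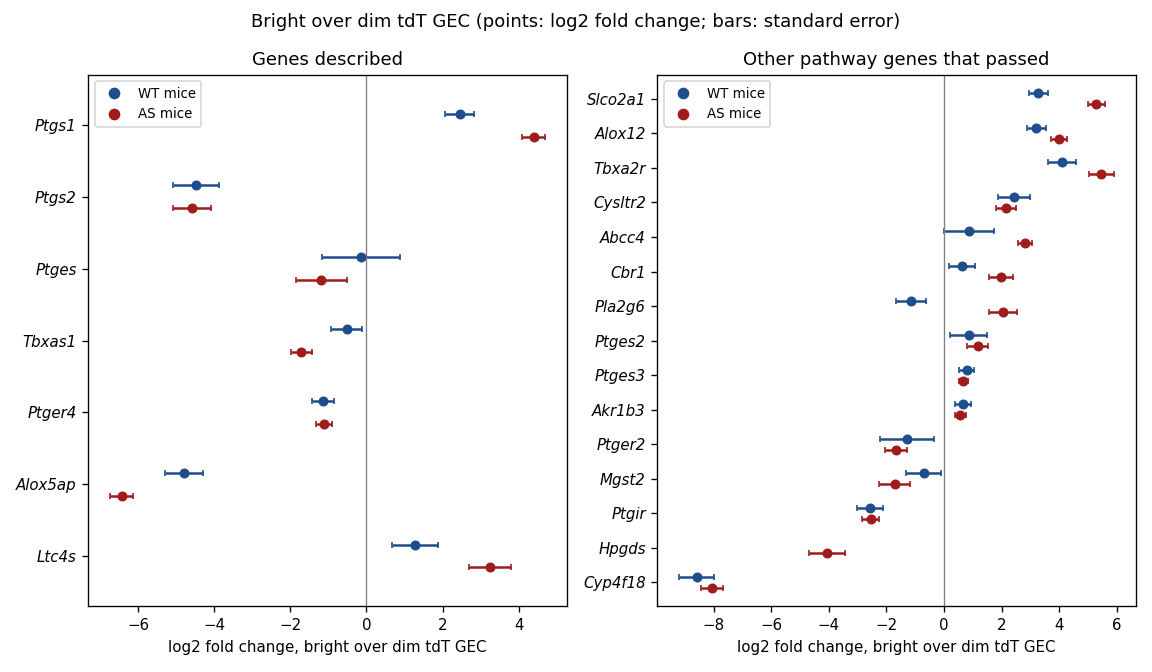
Log2 fold change of bright over dim tdT GEC (x axis) with its standard error as a bar, in WT and AS mice, for the 7 genes in both tables (left) and for the 15 other pathway genes that passed in at least 1 genotype (right). *Ptgs1* lies right of 0 and *Ptgs2* and *Alox5ap* lie left of it in both genotypes; *Hpgds* was tested in AS only.

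The comparison of AS with WT asks which messages differ in the disease model. In bright cells the prostacyclin synthase gene *Ptgis* (chr2:167191805-167240604, minus strand) had 10, 19 and 33 counts in the WT and 187, 124 and 133 counts in the AS libraries. Every AS library was above every WT library. Mean levels were 1.42 ± 0.776 CPM in WT-bright and 10.3 ± 2.80 CPM in AS-bright libraries (SD, n = 3), with a log2 fold change of AS over WT of 2.84 (standard error 0.50, 7.18-fold). The fit put 1 of the 8 genes, *Ptgis*, and 0.452% of all 14396 genes past the threshold (0.188% higher and 0.264% lower in AS), from which nothing is read. Over the 6 fits without 1 library the log2 fold change was 2.51 to 3.31. *1110018N20Rik*, on the opposite strand with 156 shared exon bases, had 0 to 6 counts.

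Prostacyclin synthase is known from vessel walls, both endothelium and smooth muscle. Arterial endothelial markers summed to 682 to 1060 CPM in WT-bright and 812 to 869 CPM in AS-bright libraries. Mesangial and mural markers summed to 426 to 921 CPM and 425 to 714 CPM, and the 4 fibroblast markers listed to 41.4 to 90.2 CPM and 61.2 to 131 CPM. The ranges of WT and AS overlapped for these 3 lists, but not for every gene of them. The fibroblast collagen gene *Col1a2* was at 14.6 ± 1.29 CPM in WT-bright and 47.3 ± 13.7 CPM in AS-bright libraries, without overlap (SD, n = 3, adjusted p = 0.0412). That call was kept in 9 of 15 alternative fits. The arterial gene *Hey1* was at 80 ± 35.4 CPM in WT-bright and 37.8 ± 1.79 CPM in AS-bright libraries. It was lower in AS without overlap but did not pass, and the other arterial genes overlapped. Of the mesangial and mural genes, *Myh11* of smooth muscle (12.1 ± 11.8 in WT-bright and 1.02 ± 0.417 CPM in AS-bright libraries) and the renin gene *Ren1* (46.2 ± 38.2 and 14.0 ± 2.64 CPM) were lower in AS without overlap. *Pdgfrb*, a receptor gene of mesangial cells and pericytes, had 72.7 ± 26 and 141 ± 60.4 CPM and *Cspg4* had 10.6 ± 7.81 and 15.8 ± 6.11 CPM, with overlap. *Acta2* (33.6 ± 15 and 17.3 ± 7.59 CPM) and *Rgs5* (29.3 ± 9.3 and 21 ± 4.59 CPM) were lower in AS with overlap. None of these mesangial and mural genes passed. Podocyte markers summed to 983 to 1200 CPM in WT-bright and 1290 to 1430 CPM in AS-bright libraries, without overlap. The part of these markers in the *Ptgis* values was not tested. *Col1a2*, *Hey1* and these mesangial and mural genes were named after their values were seen.

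*Ptgs1* was the other gene whose bright AS libraries all lay above the bright WT libraries. It was at 56.1 ± 13.0 CPM in WT-bright and 128 ± 13.6 CPM in AS-bright libraries (SD, n = 3), a log2 fold change of 1.19 (standard error 0.23). In dim cells *Ptgs1* was at 10.3 ± 4.16 and 6.08 ± 2.98 CPM, with overlapping libraries and a log2 fold change of -0.76 (standard error 0.49). The AS effect in bright minus that in dim cells was 1.99 on the log2 scale (standard error 0.49). The fit put 1 of the 7 genes, *Ptgs1*, and 3.77% of all 15084 genes past the threshold for this difference (2.96% in the direction of *Ptgs1* and 0.815% in the other), from which nothing is read. Over the 12 fits without 1 library the difference was 1.60 to 2.47.

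In bright cells *Tbxas1* and *Alox5ap* had all AS libraries below all WT libraries. *Tbxas1* was at 10.4 ± 2.92 CPM in WT-bright and 4.90 ± 0.959 CPM in AS-bright libraries, a log2 fold change of -1.08 (standard error 0.39). *Alox5ap* was at 2.69 ± 1.02 and 1.27 ± 0.367 CPM, a log2 fold change of -1.07 (standard error 0.51). Of the 8 genes, 2 were higher and 2 lower in AS without overlap in bright cells, where 13.6% of all genes were higher and 10.9% lower without overlap (24.5% in all). *Ptger4*, at 30.5 ± 5.51 against 38.5 ± 7.20 CPM (log2 fold change 0.33, standard error 0.26), and *Ltc4s*, at 2.06 ± 1.12 against 2.25 ± 0.213 CPM (0.11, standard error 0.52), overlapped. So did *Ptgs2*, at 2.21 ± 1.25 against 4.24 ± 4.04 CPM (0.93, standard error 0.72). Without AS-bright replicate 3 the *Ptgs2* value was -0.18, and without WT-bright replicate 2 the *Ltc4s* value was -0.22.

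In dim cells 7 of the 8 genes listed were fitted, and *Ltc4s* was below the filter on low counts. The quasi-likelihood fit of edgeR put 0 of the 7 and 8.63% of all 14637 genes past the threshold (2.21% higher and 6.42% lower in AS), from which nothing is read. An unadjusted p under 0.05 was found for 2 of the 7 and for 3844 of all genes. DESeq2 and edgeR's likelihood ratio test also put 0 of the 7 past the threshold, and 2213 and 1946 of all genes. 2 of the 7 had no overlap between WT and AS, where 31.2% of all genes had none, 15% with AS higher and 16.2% with AS lower. These were *Ptgs2*, with all AS-dim libraries above the WT-dim libraries at 101 ± 14.0 against 49.5 ± 28.9 CPM (log2 fold change 1.02, standard error 0.38), and *Ptges*, with all below at 2.86 ± 1.74 against 10.4 ± 7.93 CPM (-1.87, standard error 0.69). Without WT-dim replicate 2 the *Ptgs2* value was 1.57 and the *Ptges* value -1.07. *Alox5ap* was at 74.7 ± 37.6 CPM in WT-dim and 110 ± 21.6 CPM in AS-dim libraries (log2 fold change 0.56, standard error 0.35, and 1.05 without WT-dim replicate 3). *Ptger4*, *Alox5* and *Tbxas1* had log2 fold changes of 0.29, 0.10 and 0.09. Leaving out WT-dim replicate 2 or AS-dim replicate 1 turned the sign of *Alox5* (-0.26 and -0.27), and the *Tbxas1* value was -0.07 without WT-dim replicate 2. In bright cells the AS over WT value of *Ptges* was -2.91 on the log2 scale (standard error 1.17), but it was -0.24 without WT-bright replicate 1.

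**Figure D5:**
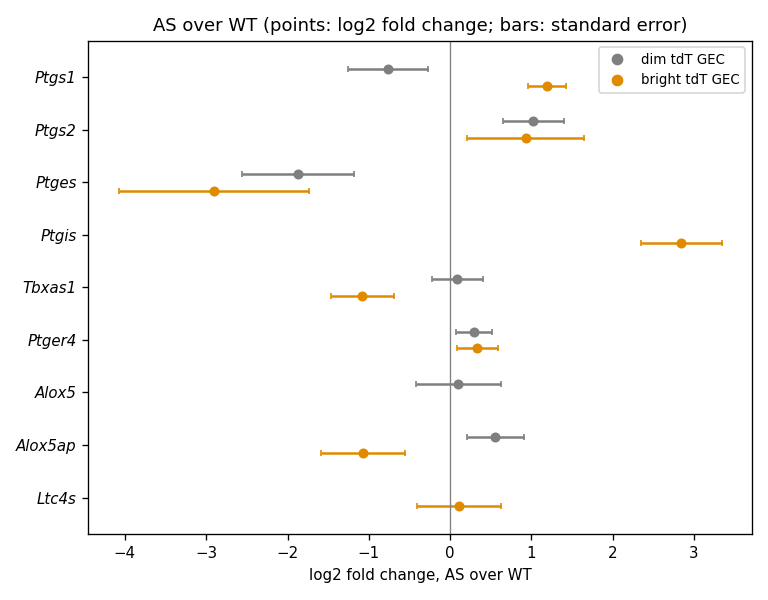
Log2 fold change of AS over WT (x axis) with its standard error as a bar, in dim and in bright tdT GEC, for the 9 genes. *Ptgis* in bright cells lies farthest right, at 2.84, and *Ptges* in bright cells farthest left, at -2.91; *Ptgs1* lies on opposite sides of 0 in the 2 subpopulations, and *Ptgis*, *Alox5* and *Ltc4s* have 1 value each.

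The other pathway genes were tested for AS over WT. In dim cells 29 were tested. In edgeR's quasi-likelihood fit 0 were higher and 2 lower in AS, where 2.21% of all genes were higher and 6.42% lower (8.63% in all). *Cysltr1*, a receptor of cysteinyl leukotrienes, was at 1.49 ± 0.581 CPM in WT-dim and 6.43 ± 2.16 CPM in AS-dim libraries (log2 fold change 2.10, standard error 0.55, adjusted p = 0.0522). It passed in 4 of 14 alternative fits, among them DESeq2 (adjusted p = 0.00835) and the likelihood ratio test (adjusted p = 0.0117). *Slco2a1* fell from 36.0 ± 6.24 CPM in WT-dim to 9.69 ± 3.55 CPM in AS-dim libraries (SD, n = 3, log2 fold change -1.90, standard error 0.36, adjusted p = 0.0241). *Ggt1*, a glutamyltransferase that trims leukotriene C4 and is known from the proximal tubule brush border, was at 68.0 ± 55.4 and 2.95 ± 3.57 CPM (log2 fold change -4.56, standard error 0.85). The *Ggt1* value is a description, since 2 of the 3 AS-dim libraries met the filter on low counts and the gene entered the fit through WT-dim cells. The *Slco2a1* call was lost without WT-dim replicate 2 (adjusted p = 0.0502) and without AS-dim replicate 1 or 3 (adjusted p = 0.113 each). Without WT-dim replicate 1 the *Ggt1* value was -3.66 and without AS-dim replicate 2 it was -6.23. *Ggt1* was at 132 CPM in WT-dim replicate 1, where the proximal tubule sum was 5700 CPM, and the endothelial sum was lower in AS-dim than in WT-dim libraries without overlap. The part of these markers in the *Slco2a1* and *Ggt1* results was not tested.

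In bright cells 22 were tested and 0 passed in edgeR's quasi-likelihood fit, where 0.452% of all genes passed. Of the 22, 6 had an unadjusted p under 0.05, as had 3145 of all 14396 genes. DESeq2 called 3 of the pathway genes and 1078 of all genes, and the likelihood ratio test 1 and 827. *Abcc4* came nearest, at 51.4 ± 14.8 CPM in WT-bright against 122 ± 20.6 CPM in AS-bright libraries (SD, n = 3, log2 fold change 1.24, standard error 0.26, adjusted p = 0.0547). The median log2 fold change of the pathway genes was -0.25 in dim and 0.03 in bright cells, against -0.02 and -0.03 over all genes tested. For the difference between the subpopulations 26 were tested, where 3.77% of all genes passed, and *Slco2a1* (2.07 on the log2 scale, standard error 0.43, adjusted p = 0.0193) and *Pla2g6* (3.25, standard error 0.72, adjusted p = 0.0247) passed. The *Slco2a1* call was lost without AS-bright replicate 1 (adjusted p = 0.0552), and the *Pla2g6* call was lost in 6 of 12 fits without 1 library. Without AS-dim replicate 3 the *Pla2g6* value was 4.24. *Slco2a1* fell in AS-dim cells and was at 347 ± 118 CPM in WT-bright and 381 ± 25.3 CPM in AS-bright libraries. *Pla2g6* was at 7.57 ± 2.49 CPM in WT-dim and 2.07 ± 1.80 CPM in AS-dim libraries, but at 3.39 ± 1.32 CPM in WT-bright and 8.60 ± 0.695 CPM in AS-bright libraries (SD, n = 3).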

How the data were processed

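RNA of sorted GEC was sequenced in 12 libraries, 3 per group from 6 mice. Per the labels and methods, poly-A selected RNA from a stranded kit was aligned with STAR 2.6.0c to GRCm38.p5, after FastQC 0.11.5, and reads were counted per gene; the strand used in counting is not given in the sources used here. The deposited counts are the authors' reads per gene, not normalized. The authors also deposited RPKM, made from the same counts and a gene length column, and these were not used, since that length exceeded the merged exons in 9 of 9 genes (1.05 to 4.23 times). Columns with the authors' own fold changes, likelihood ratios, p-values and FDR were not used.

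The members and lists were chosen with earlier results of these data known. The main test was the quasi-likelihood test of edgeR 4.0.16 (its version 4 fit, under R 4.3.3), after TMM scaling and filterByExpr and without ERCC spike-ins. P-values were adjusted by Benjamini and Hochberg's method across every gene tested, and the threshold was 0.05. CPM used TMM library sizes. AS over WT was fitted within a table, bright over dim within a genotype on the 15768 genes in both tables, and the difference of the AS effects in 1 fit of 12 libraries. The 9 members, pathway genes that passed somewhere and the 5 genes nearest to *Alox5ap* (prior count 2) were to be named; *Lta4h*, *Abcc4* in WT and genes given for a lost or gained call were named after their values were seen. Dim and bright libraries were paired through the mouse number in the labels, and their deviations from group means had mean correlations across genes of 0.197 in WT and 0.213 in AS, against -0.0985 and -0.104 between mice. No replicate pair was the same library (chi-square per degree of freedom 29.5 to 104). Alternatives were DESeq2 1.42.0, scaling by library size, the likelihood ratio test of edgeR, other filters, a replicate block, all 12 libraries in 1 fit and each library left out. The version 3 fit was added after the data had been seen. Scripts were tested on simulated data. Gene positions are those of Gencode M21 on GRCm38 and promoter sequences those of RefSeq on GRCm38.p6.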

Additional observations from a re-analysis of the deposited data

Results flagged for a closer look

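For 2 pathway genes the AS effect in bright cells differed from that in dim cells in the test of the difference itself. *Slco2a1* had a difference of 2.07 on the log2 scale (adjusted p = 0.0193), with -1.90 in dim and 0.13 in bright cells. *Pla2g6* had a difference of 3.25 (adjusted p = 0.0247), with -1.87 in dim (adjusted p = 0.0981) and 1.35 in bright cells (adjusted p = 0.109). Over all genes tested, the median difference was 0.13 and 3.77% passed. Among the endothelial markers, *Tek* (2.96), *Eng* (2.76), *Cdh5* (2.61) and *Esam* (2.33) also passed for this difference. *Nos3* (2.29), *Ehd3* (2.15) and *Flt1* (1.04) differed in the same direction and did not pass. These markers were named after their values were seen, and their part in the *Slco2a1* and *Pla2g6* differences was not tested. *Ptgs1* had a difference of 1.99 on the log2 scale, with AS over WT at 1.19 in bright and -0.76 in dim cells, which is a description and no test, since the gene was named from these effects. Groups of 3 libraries were not searched for outlying samples.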

How the results depend on the processing

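For bright over dim cells, no alternative moved the number of genes called among all genes, the 9 genes or the other pathway genes by over 1.5 times in either genotype. The calls of AS over WT did depend on the fit, and the cause was not tested. In dim cells 1263 of all genes passed, and 2213 with DESeq2, 1946 with the likelihood ratio test, 582 with the version 3 fit, 2106 with all 12 libraries in 1 fit and 0 to 1825 without 1 library (0 without AS-dim replicate 1). Counts of the 9 genes past the threshold of AS over WT, the effect they were named from, are a record of each fit and no test: in dim cells 0, and 0 to 1 without 1 library. The other pathway genes gave 2 calls, and 6 with DESeq2, 4 with the likelihood ratio test, 1 with the version 3 fit, 5 with all 12 libraries and 0 to 3 without 1 library. In bright cells 65 of all genes passed, and 1078 with DESeq2, 827 with the likelihood ratio test, 0 with the version 3 fit (3145 had an unadjusted p under 0.05 in the version 4 fit), 39 without the filter on low counts, 139 with all 12 libraries and 0 to 281 without 1 library (0 without WT-bright replicate 3, AS-bright replicate 1 or AS-bright replicate 3). For the 9 genes the record was 1, and 2 with DESeq2 and with the likelihood ratio test, 0 with the version 3 fit and without the filter on low counts, and 0 to 1 without 1 library; the fit of all 12 libraries gave 0, but *Ptgis* was not in it. The other pathway genes gave 0 calls, and 3 with DESeq2, 1 with the likelihood ratio test and 0 to 2 without 1 library. For the difference of the AS effects 569 of all genes passed, and 1184 with DESeq2, 1114 with the likelihood ratio test and 252 to 857 without 1 library. For the 9 genes the record was 1, but 0 with scaling by library size alone, with the version 3 fit and with an average logCPM above 1, and 0 to 1 without 1 library. The other pathway genes gave 2, and 1 with the version 3 fit and 0 to 2 without 1 library.

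With the replicate number as a block, the pairing of dim and bright libraries by mouse changed the calls of *Akr1b3*, *Ptges3* and *Ggt1* for bright over dim cells and no other call of the 9 genes or the other pathway genes there, and 877 of all genes passed for the difference of the AS effects. For AS over WT the same number belongs to different mice, whose deviations had mean correlations of -0.0504 in dim and -0.0367 in bright cells; a block by number gave 494 calls among all genes and 1 among the pathway genes in dim cells, and 16 among all genes and 0 among the 9 genes in bright cells.

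Bright over dim in WT for *Ptges*, -0.15, ran from -2.78 without WT-bright replicate 1 to 0.71 without WT-dim replicate 2, and was 0.32 without WT-bright replicate 2 and 0.41 without WT-bright replicate 3. Calls of the other pathway genes gained without 1 library were, for bright over dim, *Ggt1* and *Dpep1* (WT-bright replicate 1), *Ggt5* and *Abcc4* (WT-dim replicate 1), *Ptges3* (WT-dim replicate 2) and *Lta4h*, *Pla2g4a* and *Ptgfr* (AS-bright replicate 2), and for AS over WT, *Ptgfr* (WT-dim replicate 3 or AS-bright replicate 2), *Ggt1* (AS-bright replicate 2) and *Abcc4* (WT-bright replicate 2). Without AS-bright replicate 2 the *Ptgfr* and *Ggt1* values are a description. The AS-bright counts left, 9 and 5 for *Ptgfr* and 6 and 7 for *Ggt1*, put these genes in the fit only through the other group. Genes below the filter on low counts with every library also passed without 1: *Ptgds* for AS over WT in dim cells (WT-dim replicate 1), and for bright over dim *Hpgds* in WT (WT-dim replicate 3) and *Ptger1* in AS (AS-dim replicate 2 or AS-bright replicate 3). These too are a description, since each gene entered its fit only through the group where it is high. Of the 9 genes, depth limits *Ltc4s* most, with 1 to 5 counts in AS-dim libraries.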
